A study of Mus musculus with 8 samples.

Results

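A set of 10 early response genes was followed across the populations of mouse skeletal muscle: the Fos family (Fos, Fosb, Fosl1, Fosl2), the Jun family (Jun, Junb, Jund), the related factor Atf3, and the zinc finger factors Egr1 and Egr2. They were chosen by their symbols in the deposited gene table, where each of the 10 matched 1 of 36048 genes, and all 10 were among the 16700 genes tested (those that reached 1 FPKM in at least 2 libraries; FPKM counts fragments per kilobase and is set against the library's whole fragment number). The groups were sorted endothelial cells (EC, n = 3), sorted satellite cells (SC, n = 2, replicates 1 and 3) and picked single muscle fibres (SMF, n = 3). The labels give no strain, age, genotype or treatment for any of them. EC and SC came from hindlimb muscles by flow cytometry, with about 100000 cells in a library. Each SMF library was made from 100 fibres of the extensor digitorum longus that looked intact after 3 h of rest, so dissection, sorting, rest and muscle differed together with the population and their parts cannot be told apart. Nothing in the labels says that replicates were separate animals, so a p-value reflects library-to-library spread, which may be technical only.

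AP-1 is a dimer of basic leucine zipper proteins, typically of a Fos and a Jun protein. Jun proteins can also pair among themselves, Fos proteins need a partner, and Atf3 can bind DNA alone or with Jun proteins. Several of these genes are switched on within minutes of a stimulus through transcription factors already present in the cell. Serum response factor with its ternary complex partners binds CArG boxes, and CREB and ATF proteins bind cyclic AMP response elements. Their messengers are short-lived, and the RNA-binding proteins of the Zfp36 family help to remove such messengers. In skeletal muscle this response is well known in satellite cells during the dissociation of the tissue.

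The bases just before a transcription start of 5 of the genes are shown because such bases can hold letters through which the response is read. Fos, Fosb and Egr2 were among the 4 members that differed most between SC and EC. Jun and Atf3 were not called there. Each run is the 250 bases before a RefSeq transcription start (GRCm38.p6, the assembly also called mm10), 5′ to 3′ in the direction of the gene. For Egr2 the start was that of the deposited transcript with the highest FPKM. The Egr2 run thus lies wholly inside the gene's full span (67534469 to 67542188). The Fosb start lies inside that gene's span (19302696 to 19310118), so the end of its run, with the marked TGACG, does too. Capitals mark the CArG box, TGACG (the core of a cyclic AMP response element) on either strand, TGACNTCA and TATAAA.
Fos, chr12:85473640-85473889, plus strand: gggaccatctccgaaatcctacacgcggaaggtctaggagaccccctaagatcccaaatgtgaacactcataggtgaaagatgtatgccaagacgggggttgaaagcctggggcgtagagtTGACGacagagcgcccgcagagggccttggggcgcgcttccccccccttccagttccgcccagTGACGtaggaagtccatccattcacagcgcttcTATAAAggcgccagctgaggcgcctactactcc
Fosb, chr7:19310046-19310295, minus strand: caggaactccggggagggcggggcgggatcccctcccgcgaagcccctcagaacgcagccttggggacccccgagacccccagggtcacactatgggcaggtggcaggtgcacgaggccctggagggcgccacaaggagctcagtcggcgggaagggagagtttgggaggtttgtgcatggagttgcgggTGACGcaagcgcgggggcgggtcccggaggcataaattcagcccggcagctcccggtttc
Egr2, chr10:67537619-67537868, plus strand: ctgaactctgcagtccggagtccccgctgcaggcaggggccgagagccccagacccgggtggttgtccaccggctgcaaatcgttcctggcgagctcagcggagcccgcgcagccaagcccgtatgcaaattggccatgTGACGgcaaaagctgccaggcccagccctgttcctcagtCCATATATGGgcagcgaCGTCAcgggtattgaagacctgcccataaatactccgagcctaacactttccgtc
Jun, chr4:95052223-95052472, minus strand: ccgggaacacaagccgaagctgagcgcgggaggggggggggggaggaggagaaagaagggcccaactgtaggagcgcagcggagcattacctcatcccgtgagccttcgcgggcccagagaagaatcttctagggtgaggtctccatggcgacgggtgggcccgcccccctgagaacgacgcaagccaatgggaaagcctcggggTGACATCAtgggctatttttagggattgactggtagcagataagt
Atf3, chr1:191183334-191183583, minus strand: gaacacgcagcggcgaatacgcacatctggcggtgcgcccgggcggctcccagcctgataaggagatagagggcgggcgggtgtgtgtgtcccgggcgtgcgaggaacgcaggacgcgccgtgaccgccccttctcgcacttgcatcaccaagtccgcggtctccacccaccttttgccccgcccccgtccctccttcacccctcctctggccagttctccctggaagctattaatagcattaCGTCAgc
RefSeq windows of 300 bases (250 before to 50 after the start) were matched for 8 of the 10 members, not for Fosl1 and Egr1, and were searched on both strands beside 32851 windows of all genes. TGACG stood in 5 of the 8 (Atf3, Egr2, Fos, Fosb and Junb) and in 20.8% of all windows. The longer TGACGT, which contains it, stood in 3 (Atf3, Egr2 and Fos) and in 7.51%. Among the 8 windows a CArG box stood in Egr2 alone, at -72 to -63 from the start, against 1.63% of windows. TGACNTCA stood in Jun alone, as TGACATCA at -45 to -38, against 8.83%. TGANTCA, the AP-1 site, was in 0 of the 8 windows against 7.81%, and GCGTGGGCG, the Egr site, in 0 against 0.612%. TATAAA stood in Fos (-33 to -28) and Junb (1 to 6), against 13.6%. A match describes the letters only. Bases further than 250 before the start were not searched, so sites there, in Fos or any other member, were not seen.

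The libraries carried the markers of their labels. The summed FPKM of 8 endothelial markers was 1153 to 1179.9 in EC, 17.6 to 23.9 in SC and 3.82 to 4.31 in SMF, and that of 8 satellite cell markers 887 to 916 in SC, 9.87 to 22.8 in EC and 16.3 to 21.3 in SMF. Pax7, Fgfr4 and Calcr were listed at 0 in every EC library. The 8 fibre markers summed to 32731 or more in SMF, 195 and 315 in SC and at most 24.8 in EC. An aligned length of 278 to 368 Mb was estimated for the EC and SC libraries and 525 to 581 Mb for SMF, where 1 fragment on 1 kb is worth 0.272 to 0.360 and 0.172 to 0.190 FPKM. EC replicate 2 and SMF replicate 1 stood apart from their groups for the members, so counts are also given without both of them, an alternative added after the data were seen. Since the members' values picked these libraries, such counts are not an independent check. The median log2 difference over all tested genes was 0.93 for SC minus SMF and 0.85 for EC minus SMF, and fell to 0.12 and 0.09 under median-of-ratios scaling, which is why differences from fibres are read beside that shift.

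In the Fos family, Fos and Fosb had their highest FPKM in SC and their lowest in fibres. By its place among the 16700 tested genes of a library Fos was high everywhere: 99.6% and 99.7% of them lay below it in SC, 98.9% to 99.1% in EC and 98.2% to 99.0% in SMF. Fos (chromosome 12, 85473890 to 85477274, GRCm38), the prototype partner of Jun, stood at 1124 and 1577 FPKM in SC, 277, 206 and 312 in EC, and 199.8, 90.0 and 114 in SMF. Fosb (chromosome 7, 19302696 to 19310118), a close relative of Fos with its own short-lived response, stood at 198 and 161 in SC, 46.2, 25.6 and 48.8 in EC, and 14.4, 6.12 and 5.74 in SMF. The 3 populations did not overlap for either gene, in the order SC, EC, SMF. Fosl1 (chromosome 19, 5447698 to 5455938), a later Fos-related gene, was far lower, at 20.8 and 13.0 in SC, 7.79, 2.07 and 7.21 in EC, and 3.38, 1.90 and 2.06 in SMF, and EC and SMF overlapped. An estimate of 13.0 fragments lay behind the Fosl1 value of EC replicate 2 and of 111 behind that of SC replicate 1. Fosl2 (chromosome 5, 32136472 to 32157840), a Fos relative that is often present without a stimulus, stood at 47.1 and 37.1 in SC, 29.9, 32.1 and 33.7 in EC, and 4.65, 3.44 and 3.11 in SMF. It was the flattest member between the sorted populations, and fibres lay well below both.

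In the Jun family, Jun was abundant in both sorted populations. Jun (chromosome 4, 95049036 to 95052222), the main partner of Fos, stood at 709 and 918 FPKM in SC, 442, 363 and 496 in EC, and 98.3, 45.6 and 53.7 in SMF. Junb (chromosome 8, 84976909 to 84978748), a weaker activator that can hold back Jun, stood at 544 and 689.6 in SC, 212, 137 and 216 in EC, and 88.2, 52.0 and 71.1 in SMF. Jund (chromosome 8, 70697739 to 70700616), usually the least inducible Jun gene, stood at 242 and 215 in SC, 96.3, 52.1 and 98.2 in EC, and 11.8, 7.14 and 9.82 in SMF. For all 3 genes the populations did not overlap and the order was again SC, EC, SMF.

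Atf3 and the Egr genes kept SC on top but did not separate EC from fibres in every library. Atf3 (chromosome 1, 191170296 to 191183333), a stress-induced factor that often represses, stood at 192 and 258 FPKM in SC, 143, 139 and 159.8 in EC, and 140.2, 42.5 and 55.3 in SMF. SMF replicate 1 thus reached the level of EC. Egr1 (chromosome 18, 34861207 to 34864956), an early activator in many cell types, stood at 1013 and 1261 in SC, 161, 100.4 and 156 in EC, and 175, 78.6 and 92.8 in SMF. Egr2 (chromosome 10, 67534469 to 67542188), its relative known from myelinating Schwann cells, stood at 54.5 and 83.7 in SC, 5.13, 6.72 and 6.57 in EC, and 8.43, 2.87 and 4.06 in SMF. SC lay far above both other populations for the Egr genes, while EC and SMF overlapped. Per length, Fos, Egr1 and Jun were thus the 3 highest members in SC, and Fosl1 was the lowest member there.

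**Figure D1:**
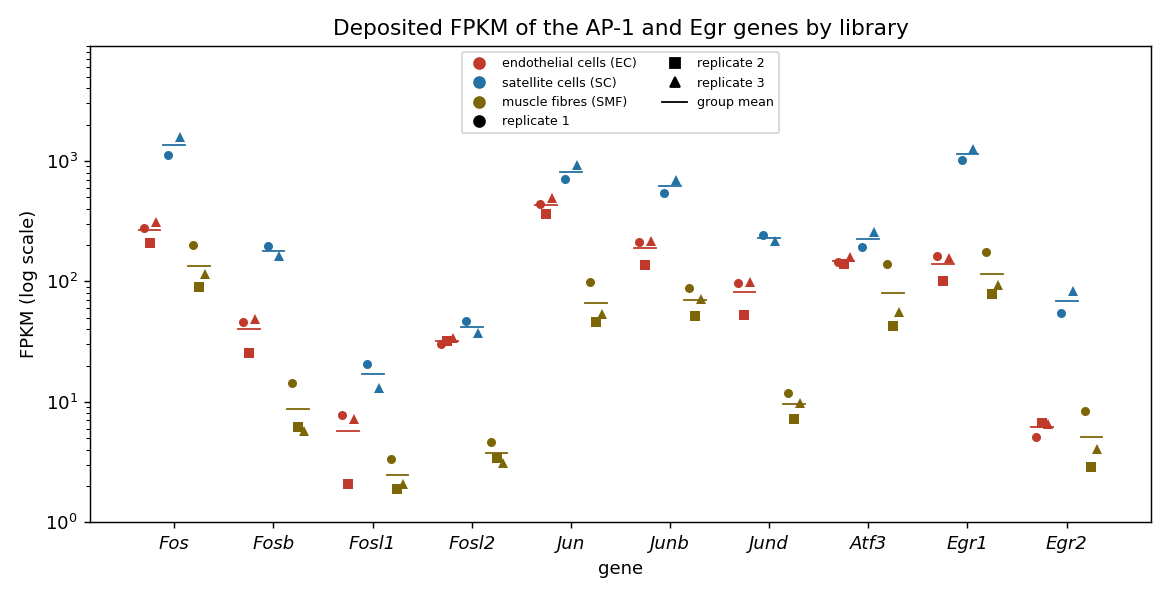
Deposited FPKM of each gene (log axis) in every library of EC (n = 3), SC (n = 2) and SMF (n = 3), with the group mean as a bar. SC lies above EC and SMF for all 10 genes, and EC and SMF overlap for Fosl1, Atf3, Egr1 and Egr2.

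Satellite cells against endothelial cells asked how the response genes differed between the sorted populations. Of the 10 members, limma called 7 higher in SC and 0 lower (0 also at an unadjusted p under 0.05), and 3 were not called, where 21.2% of all tested genes were called higher and 16.4% lower (37.7% in either direction). In all 10 the SC libraries lay above every EC library, which held for 31.5% of tested genes. The median log2 difference of the members was 1.63, against 0.11 for all tested genes. In bulk RNA, fewer cells with a transcript and less of it per cell cannot be told apart. Egr2 differed most, 11.3-fold in means (log2 3.27, SE 0.37, adjusted p = 0.000363), followed by Egr1 at 8.17-fold (log2 3.04) and Fos at 5.09-fold (log2 2.34, SE 0.38, adjusted p = 0.00207). Of all tested genes, 99.0%, 98.8% and 97.5% had a lower log2 difference than these genes. Fosb (log2 2.18), Junb (1.73), Fosl1 (1.53) and Jund (1.52) were also called. Jun differed by a log2 of 0.91 (95% interval 0.10 to 1.71, adjusted p = 0.0776), Atf3 by 0.59 (-0.47 to 1.66, adjusted p = 0.357) and Fosl2 by 0.38 (-0.06 to 0.82, adjusted p = 0.158), none of them called. The direction stayed in all 10 under each alternative scaling, while the share of all calls that were higher in SC moved from 56.3% to 46.0% under median-of-ratios scaling and to 37.4% without the most abundant genes. The call of Fosl1 (adjusted p = 0.0348) was lost under 9 of the alternatives, among them without SC replicate 1 (0.185), SC replicate 3 (0.065), SMF replicate 2 (0.053) or SMF replicate 3 (0.056), and that of Jund (adjusted p = 0.0073) without SC replicate 1 (0.0505). Jun was called without SMF replicate 1 (adjusted p = 0.0313), and without EC replicate 2 and SMF replicate 1 together 8 members were called.

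The same cells carried different amounts of other cell types' markers. The 8 mural markers summed to 580.1, 226 and 698 FPKM in EC and to 217.5 and 273 in SC, but the members of this list went opposite ways: 5 were called lower in SC and 2 higher, with a median log2 of -2.79. Rgs5, a pericyte marker, stood at 392.3, 153 and 473 in EC and 11.7 and 4.81 in SC, while Acta2, the smooth muscle actin gene, stood at 135 and 194 in SC and 50.2, 31.5 and 65.6 in EC. The 8 fibroadipogenic markers summed to 76.6, 18.8 and 85.1 in EC and to 256 and 252 in SC. Of the 7 tested, 2 were called higher in SC, with a median log2 of 0.11, and the SC sum was carried by the matrix genes Dpt (103 and 95.5) and Col3a1 (108 and 113), while Pdgfra, which defines these cells, stood at 1.31 and 1.70 in SC and 0.221 to 2.57 in EC. The immune markers (8 symbols, 9 table entries) summed to 58.1, 13.4 and 80.5 in EC and to 28.9 and 32.2 in SC, with Adgre1 and Itgam at 0 in both SC libraries, and fibre markers to 11.9 to 24.8 in EC and 195 and 315 in SC. Their part in the differences of the members was not tested.

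Satellite cells against fibres compared the stem cells with the cells they lie beside. All 10 members were called higher in SC, where 56.5% of all tested genes were called higher, 8.57% lower and 65.1% in either direction, and in all 10 the groups did not overlap, as in 67% of tested genes. The members' median log2 difference was 3.37, against 0.93 for all tested genes, and fell to 1.79, 2.13 and 2.32 (all tested genes 0.12, 0.31 and 0.40) under the median-of-ratios, upper-quartile and top-gene-free scalings, the last computed without the most abundant genes. Jund (log2 4.46, SE 0.32, adjusted p = 1.65e-05) and Fosb (4.31) differed most, 23.9-fold and 20.5-fold in means of the deposited FPKM, and their log2 differences were 2.94 and 2.81 under median-of-ratios scaling. Jun differed by a log2 of 3.68, Egr2 by 3.59, Fos by 3.38, Egr1 by 3.37, Fosl2 by 3.19 and Junb by 3.13. Fosl1 (2.37) and Atf3 (1.67, SE 0.46, adjusted p = 0.0132) differed least. The share of all calls that were higher in SC fell from 86.8% to 51.1%, 62.1% and 67.1% under the same scalings. Under them no member changed direction, the log2 of Atf3 was 0.09, 0.43 and 0.63 and was not called (adjusted p = 0.888, 0.446 and 0.296), and Fosl1 was not called under the first (adjusted p = 0.081). Without SC replicate 3 the call of Atf3 was also lost (adjusted p = 0.0824).

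Endothelial cells against fibres divided the members. Of 10, 7 were called higher in EC and 0 lower by limma (0 at an unadjusted p under 0.05), against 55.5% and 10.8% of all tested genes (66.3% in either direction). The groups did not overlap for 6, where 58.9% of tested genes had EC above SMF. The members' median log2 difference was 1.24, against 0.85 for all tested genes, and -0.13 against 0.09 under median-of-ratios scaling. Jund (log2 2.94, SE 0.28), Fosl2 (2.81, SE 0.17) and Jun (2.77, SE 0.31) differed most (adjusted p = 5.03e-05, 3.88e-06 and 0.000117), and 93.2%, 92.4% and 92.2% of tested genes had a lower difference. These 3 were called under each scaling. Fosb (2.13) and Junb (1.41) followed, and with median-of-ratios scaling they stood at 0.82 and 0.01 and were not called. Fos (log2 1.03, adjusted p = 0.0261) and Atf3 (1.08, adjusted p = 0.0481) were called as deposited but turned to -0.37 and -0.32 under median-of-ratios scaling and to -0.22 and -0.17 under upper-quartile scaling. The call of Fos was also lost without EC replicate 1, EC replicate 3, SMF replicate 2 or SMF replicate 3 (adjusted p = 0.0669 to 0.0901). That of Atf3 was lost without any 1 EC library, SMF replicate 2 or SMF replicate 3 (0.0835 to 0.148), and with only the 2 groups fitted (0.0572). Fosl1 (0.84, adjusted p = 0.111), Egr1 (0.32, 95% interval -0.47 to 1.12) and Egr2 (0.32, -0.45 to 1.09) were not called as deposited. Under median-of-ratios and upper-quartile scaling Egr1 stood at -1.08 and -0.92 and was called lower in EC (adjusted p = 0.0217 and 0.0381), and Egr2 stood at -0.88 and -0.74 without a call.

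The share of all calls that were higher in EC was 83.7% as deposited and 53.0%, 57.0% and 71.2% under these scalings and the one without the most abundant genes. With 1 library left out, 5 to 8 members were called, and 9 without EC replicate 2 and SMF replicate 1 together, Egr1 among them (log2 0.88, adjusted p = 0.0147). These libraries were picked by the members' own values, as mostly the lowest of EC and the highest of SMF. Leaving them out widened the difference by that choice (members' median log2 1.71), so the 9 calls are not a check on it. In 5 single leave-outs the count was below 6 or above 7: it was 5 without EC replicate 1, EC replicate 3, SMF replicate 2 or SMF replicate 3, and 8 without SMF replicate 1. Fosl1 stood at -0.26 and -0.14 under the first pair of scalings. The direction of Fos, Fosl1, Atf3, Egr1 and Egr2 between EC and fibres thus depended on the scaling.

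Markers of other cell types also differed from fibres. Against SMF, 7 of 8 mural markers were called higher in EC (median log2 3.87), as were 5 of 5 erythroid markers (3.81), 4 of 4 tested immune markers (1.92) and 1 of 7 tested fibroadipogenic markers (0.71). The mural sums were 226 to 698 FPKM in EC and 28.8 to 29.9 in SMF, where Kcnj8 was listed at 0 in all libraries. Most of the SMF sum was Abcc9, at 21.5, 22.7 and 22.2 in SMF and 23.2, 3.44 and 25.5 in EC. The erythroid sums were 269.9 to 582 in EC and 11.6 to 52.7 in SMF. The immune sums were 13.4 to 80.5 in EC and 1.23 to 3.73 in SMF, where Adgre1, Cd3e and Itgam were listed at 0 throughout. In SC against SMF, 3 mural markers were called higher and 1 lower, and 2 of 4 immune, 2 of 5 erythroid and 3 of 7 fibroadipogenic markers were called higher. Their part in the members' differences from fibres was not tested.

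**Figure D2:**
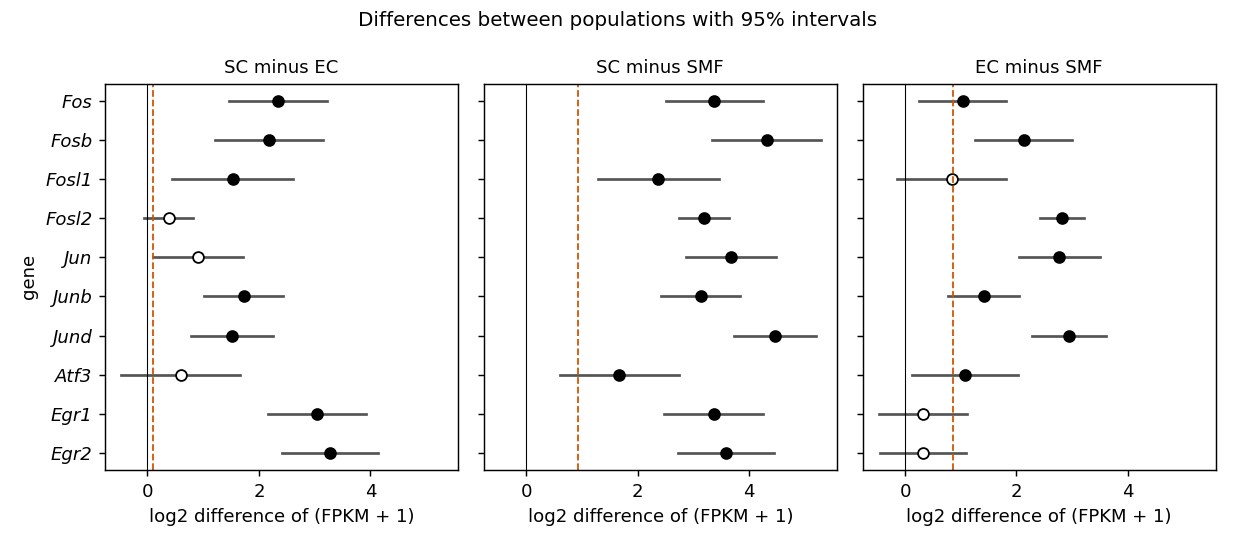
Log2 difference of (FPKM + 1) for each gene in the 3 comparisons, with 95% intervals from limma; filled points were called and the dashed line is the median of all tested genes. SC stands above EC and SMF for all 10 genes, while Egr1 and Egr2 lie near 0.32 for EC minus SMF, a value that turned negative under median-of-ratios and upper-quartile scaling.

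**Figure D3:**
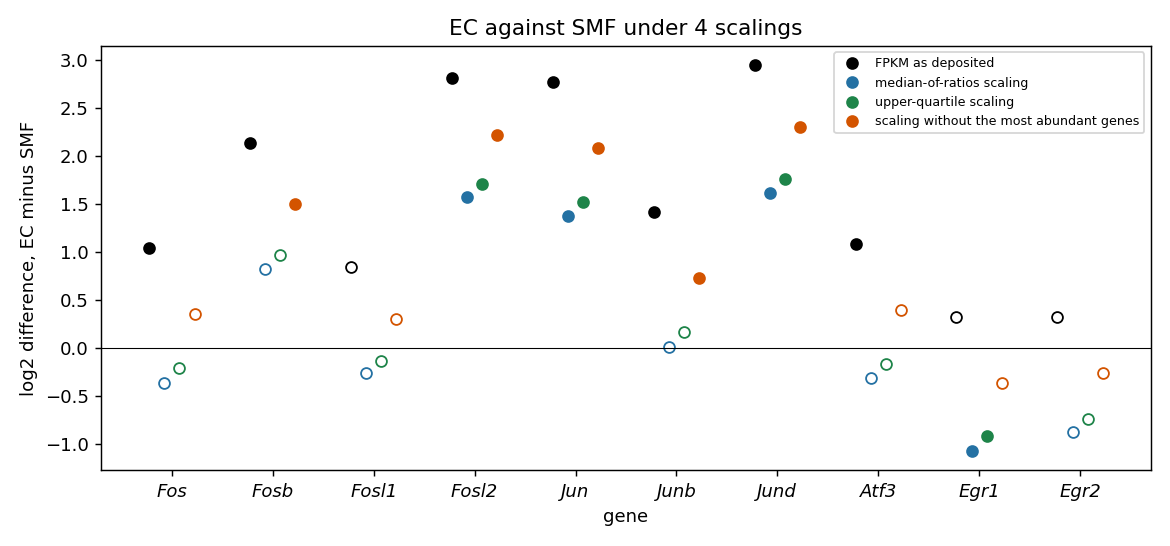
Log2 difference EC minus SMF of each gene under the deposited FPKM and 3 other scalings; filled points were called. Fosl2, Jun and Jund stay above 0 and called under all 4, whereas Fos, Fosl1, Atf3, Egr1 and Egr2 fall below 0 under median-of-ratios and upper-quartile scaling.

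Ratios between members of the same library do not change with library scaling, and 10 ratios were compared over the 3 groups, chosen after values were seen. Fos and Jun stood in a different proportion in each population. The ratio of Fos to Jun FPKM was 0.627, 0.568 and 0.630 in EC, 1.59 and 1.72 in SC and 2.03, 1.98 and 2.13 in SMF. The 3 groups did not overlap (exact permutation test over 560 arrangements, p = 0.00357, adjusted p = 0.0357 over 10 ratios). Jun RNA thus exceeded Fos RNA in every EC library, and Fos exceeded Jun in every SC and SMF library. Junb to Jun took the same order, at 0.480, 0.378 and 0.436 in EC, 0.768 and 0.751 in SC and 0.897, 1.14 and 1.33 in SMF (exact permutation test, p = 0.00714, adjusted p = 0.0357). Without any 1 of the EC libraries both adjusted p-values were 0.0952 by the same exact permutation test, and without SC replicate 3 they were 0.0571; the smallest unadjusted p that these smaller sets allow is 0.00952 and 0.0143. In the deposited TPM table, which was quantified over other gene models, Fos to Jun was 1.09, 0.995 and 1.02 in EC, 2.10 and 2.30 in SC and 2.80, 3.59 and 3.76 in SMF. The order of the groups was therefore the same there (exact permutation test, adjusted p = 0.0238), but Jun did not exceed Fos in 2 of 3 EC libraries.

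Other ratios did not pass the adjustment on the gene table. Egr1 to Fos was 0.581, 0.487 and 0.499 in EC, 0.901 and 0.800 in SC and 0.878, 0.873 and 0.814 in SMF, so EC lay below both others, which overlapped (exact permutation test, p = 0.0357, adjusted p = 0.051). This ratio passed the adjustment in the TPM table (exact permutation test, adjusted p = 0.0268; 0.278 to 0.335 in EC, 0.680 and 0.597 in SC, 0.460 to 0.638 in SMF) and without SC replicate 1 or SMF replicate 1 (0.0357 and 0.0476), and not without any other 1 library (0.0571 to 0.131). Atf3 to Fos was 0.171 and 0.164 in SC, 0.511 to 0.673 in EC and 0.472 to 0.702 in SMF (exact permutation test, adjusted p = 0.051). Fosl2 to Fos was 0.108 to 0.156 in EC, 0.0235 and 0.0419 in SC and 0.0233 to 0.0382 in SMF (exact permutation test, adjusted p = 0.051). The summed Fos family to the summed Jun family was 0.481 to 0.497 in EC, 0.929 and 0.981 in SC and 0.928 to 1.12 in SMF (exact permutation test, adjusted p = 0.051, and 0.0238 in the TPM table). Egr2 to Egr1 (exact permutation test, adjusted p = 0.429) and Fosl1 to Fos (0.543) overlapped between EC and fibres.

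As shares of the summed FPKM of the 10 members, Jun made up 31.1% to 34.1% in EC, 17.1% and 17.6% in SC and 13.0% to 13.8% in SMF. Fos made up 19.4% to 20.4% in EC, 27.1% and 30.2% in SC and 26.8% to 27.7% in SMF. Egr1 made up 9.44% to 11.3% in EC, 24.4% and 24.2% in SC and 22.5% to 23.8% in SMF. Atf3 made up 10.1% to 13.0% in EC, 4.63% and 4.95% in SC and 12.9% to 18.8% in SMF. By these FPKM shares EC was the population in which Jun led, while Fos led in SC and SMF. In the TPM table Fos to Jun was 1.09, 0.995 and 1.02 in EC, so the lead of Jun over Fos did not hold in every EC library there.

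**Figure D4:**
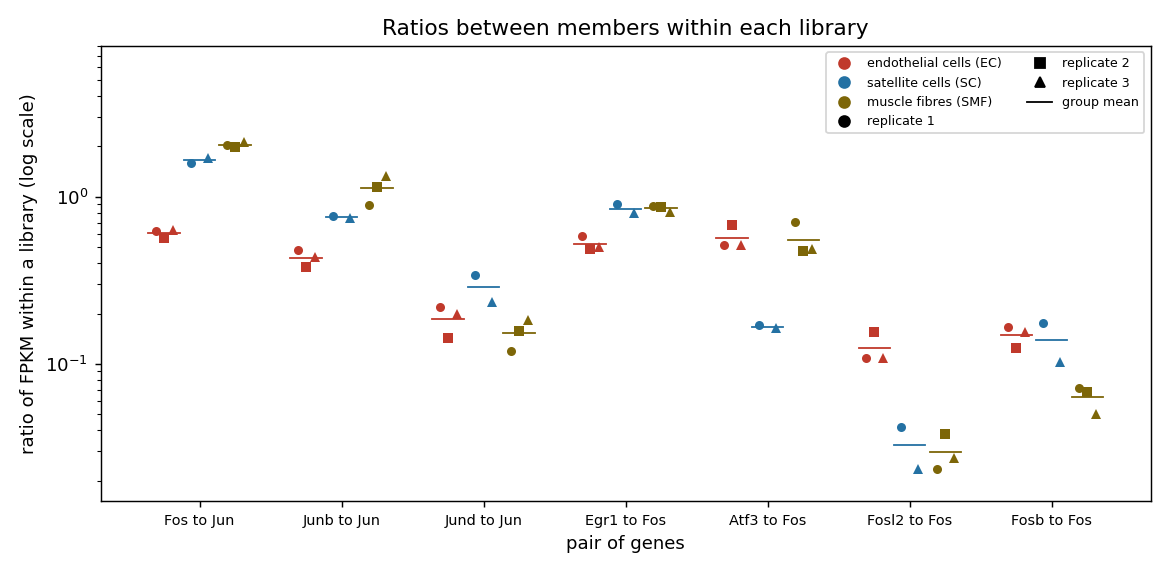
Ratio of the FPKM of gene pairs within each library (log axis) for EC (n = 3), SC (n = 2) and SMF (n = 3), with the group mean as a bar. Fos to Jun runs from 0.568 to 0.630 in EC and from 1.59 to 2.13 in SC and SMF, and Atf3 to Fos is lowest in the SC libraries at 0.164 and 0.171.

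Within the populations, the members did not vary alike in every library. SMF replicate 1 was the highest of the 3 fibre libraries for 10 of 10 members, where it was the highest for 33.0% of 8008 genes. Its members lay a median log2 of 0.97 above the other fibre libraries, against 0.01 for all those genes. Atf3 stood at 2.87 times the mean of the other fibre libraries, Fosb and Egr2 at 2.43, Egr1 at 2.05, Fos at 1.96 and Jund at 1.39. Of 29 other immediate early genes 23 were also highest there. In the same library the fibroadipogenic markers summed to 22.3 FPKM against 47.1 and 43.1, the immune markers to 1.23 against 3.73 and 2.57 and the erythroid markers to 11.6 against 52.7 and 34.5, while the mural markers stood at 29.9 against 28.8 and 29.0. Most of each mural sum was Abcc9.

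EC replicate 2 was the lowest EC library for 8 of 10 members, where it was the lowest for 49.0% of 13387 genes, with a median log2 of -0.57 against -0.13 for all. The exceptions were Fosl2 and Egr2, which were highest in EC replicate 3 and EC replicate 2. Of 31 other immediate early genes 24 were lowest there. The mural, fibroadipogenic and immune marker sums given above were all lowest in this library, and erythroid markers stood at 269.9 FPKM against 575 and 582, while endothelial markers stood at 1153 against 1179.9 and 1156. That near-equal sum hid opposite moves, as 4 of the 8 endothelial markers were highest there and 4 lowest. Pecam1 stood at 276 against 169 and 166, and Kdr at 80.9 against 137.5 and 153.8. The labels say that 1 sample missed the RNA integrity limit without naming it. The part of cell makeup and RNA quality in these library differences was not tested.

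**Figure D5:**
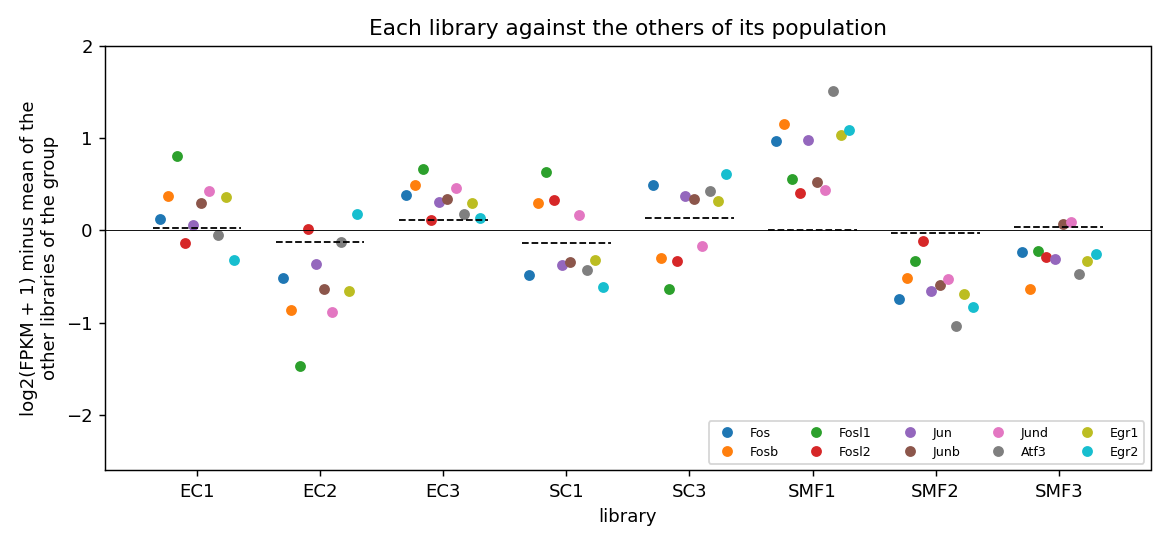
Log2(FPKM + 1) of each gene in a library minus the mean of the other libraries of its population, with the median of all genes as a dashed line. All 10 genes lie above 0 in SMF replicate 1, and 8 of 10 are lowest in EC replicate 2 within their group.

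Fosl2 also differed in the make-up of its listed transcripts. Of 3 transcripts of Fosl2 in the deposited transcript table, 2 are annotated as retained introns in GENCODE, matched by identifier. Their share of the listed Fosl2 FPKM was 46.5%, 45.3% and 43.3% in EC, 27.0% and 30.1% in SC and 56.7%, 57.3% and 47.8% in SMF. The spliced transcript stood at 60.4 and 46.4 FPKM in SC and 31.8, 35.2 and 37.4 in EC, and the retained intron transcripts together at 22.3 and 19.9 in SC and 27.7, 29.1 and 28.6 in EC. So the spliced form was above EC in both SC libraries and the sum of the others was below. Of the 2 retained intron transcripts, the one with 1 exon stood at 12.7 and 12.5 in SC and 17.8 to 19.5 in EC. The other overlapped, at 9.62 and 7.44 in SC and 8.13 to 11.3 in EC. These shares were not tested, since the table does not hold every transcript. Its rows do not serve for Jun or Egr1, for which it lists no transcript.

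The patterns of other genes across the 8 libraries were set beside Fos as a description. Among 16699 other tested genes, the closest by Pearson correlation of log2(FPKM + 1) were Atf1 (r = 0.995), BC024978 (0.993), Socs3 (0.992) and Dnajb1 (0.988). Atf1, a CREB family factor, ran from 4.02 FPKM in SMF replicate 2 to 14.1 in SC replicate 3, a much narrower range than that of Fos. Of the members, Junb followed Fos most closely (r = 0.980, rank 24), then Egr1 (0.970, rank 75), Fosb (0.962) and Egr2 (0.959). Fosl1 (0.917), Jund (0.896), Jun (0.867), Atf3 (0.865) and Fosl2 (0.771, rank 4287) were less like it. All points share the 3 populations and their library scaling.

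In a list of 32 other immediate early genes, 17 were called higher in SC than in EC, 6 lower and 9 not called (all tested genes 21.2% higher and 16.4% lower). Cyr61, a matricellular protein gene, had means of 564 FPKM (SC) and 142 (EC), a log2 difference of 2.00 (adjusted p = 0.00615). The antiproliferative gene Btg2 stood at 371 against 146 (log2 1.35) and Socs3, a feedback inhibitor of cytokine signalling, at 304 against 96.8 (log2 1.63). Plk2, a polo-like kinase gene, took the other direction at 43.7 against 162 (log2 -1.87), as did Nfkbia, the inhibitor of NF-kB, at 98.3 against 167 (log2 -0.77, adjusted p = 0.0449). The count higher was 10 without SC replicate 1, 11 without SC replicate 3 and 10 when scaled without the most abundant genes, and the count lower was 3 without EC replicate 1, EC replicate 3 or SC replicate 1 and 2 without SC replicate 3. Against fibres, 28 were higher in SC and 26 in EC, and 19 and 14 under median-of-ratios scaling. Of all tested genes 56.5% and 55.5% were called higher than in fibres, and 26.8% and 32.1% under median-of-ratios scaling. These shares also stand beside the lists below. Ptgs2, a cyclooxygenase gene, was the 1 called higher in SMF than in SC, and this count was 0 without SC replicate 1, SC replicate 3 or SMF replicate 3 and 2 without SMF replicate 2.

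The relatives and corepressors of the Egr genes were few. Egr3 was higher in SC than in EC (17.2 against 6.15 FPKM, log2 1.36, adjusted p = 0.000787), while Nab1 and Nab2, corepressors of Egr proteins, were not called there. Mean FPKM of Nab1 was 25.1 in EC and 21.7 in SC, with 1.34 to 1.74 in the fibre libraries, and that of Nab2 was 7.73, 10.3 and 1.00. All 3 were higher in both sorted populations than in fibres, also under each other scaling.

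Of 20 other basic leucine zipper genes, 9 were called higher in SC against EC, 1 lower and 10 not called (all tested genes 21.2% higher and 16.4% lower). The highest were the C/EBP genes Cebpd (547.5 against 85.1 FPKM, log2 2.67) and Cebpb (161 against 18.1, log2 3.10) and the stress factor Atf4 (253 against 105, log2 1.28). Mafg, a small Maf gene, was the 1 called lower, and its call was lost without SC replicate 1, without SMF replicate 2 and without EC replicate 3. Against fibres 15 were higher and 1 lower in SC, and 9 higher and 2 lower in EC. Under median-of-ratios scaling these became 4 higher and 4 lower in SC, and 2 higher and 9 lower in EC. Of all tested genes 25.6% (SC) and 28.5% (EC) were called lower than in fibres under that scaling. Jdp2, a repressor of AP-1, had means of 30.8 (SC), 14.6 (EC) and 1.33 (SMF). Maf was higher in fibres, at 14.7 against 3.47 in SC and 2.96 in EC. Without EC replicate 2 and SMF replicate 1 together, 13 were called higher in EC than in fibres.

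Upstream of the members, the list of serum response factor and its partners did not move one way. Of 6 genes, 1 was higher in SC than in EC and 3 lower (all tested genes 21.2% higher and 16.4% lower). Srf, which binds the CArG box, had means of 25.1 FPKM (SC) and 7.57 (EC), a log2 difference of 1.65 (adjusted p = 0.00275). Its partner genes Elk3 (3.61 against 50.7, log2 -3.49), Elk4 (log2 -0.89) and Mkl2 (4.37 against 24.8, log2 -2.26) were lower in SC, and this was 2 genes without SC replicate 1. Against fibres 4 were higher in SC and 4 in EC, with 0 lower in either. Under median-of-ratios scaling 2 were higher and 2 lower in SC, and 3 higher and 2 lower in EC.

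Of 18 MAP kinase genes, which carry the signal to these factors, 1 was higher in SC than in EC, 4 lower and 13 not called. Of all tested genes 21.2% were higher and 16.4% lower. Mapk3, the kinase also called ERK1, had means of 13.0 FPKM (SC) and 37.4 (EC), a log2 difference of -1.47 (adjusted p = 0.00161). The count higher was 2 without EC replicate 1 and 0 without SC replicate 1 or SC replicate 3. Against fibres 6 were higher in SC and 3 lower, which turned to 3 and 12 under median-of-ratios scaling, and 8 were higher in EC and 4 lower, which turned to 5 and 11. Of all tested genes 56.5% were higher in SC than in fibres and 8.57% lower, or 26.8% and 25.6% under median-of-ratios scaling. For EC these shares were 55.5% and 10.8%, or 32.1% and 28.5%. The count lower in SC than in fibres was 2 without EC replicate 1, EC replicate 3, SC replicate 3 or any 1 SMF library. Without EC replicate 2 and SMF replicate 1 together, 2 were lower in EC than in fibres.

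Of 10 dual specificity phosphatase genes, which switch MAP kinases off, 3 were higher in SC than in EC, 3 lower and 4 not called. Of all tested genes 21.2% were higher and 16.4% lower. Dusp10 stood at 9.94 FPKM in SC and 1.49 in EC (log2 2.14) and Dusp6, which acts on ERK, at 8.56 against 27.5 (log2 -1.58). The counts higher and lower were each 2 without SC replicate 3. Dusp1, itself an early response gene, ran from 112 to 135 in SC, 103 to 158 in EC and 17.8 to 42.4 in SMF. Against fibres 5 were higher and 1 lower in SC, and 7 higher and 2 lower in EC. Under median-of-ratios scaling 2 were higher and 4 lower in SC, and 3 higher and 3 lower in EC.

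Of 8 messenger decay genes of the AU-rich element, 5 were called higher in SC against EC (all tested genes 21.2%), among them Zfp36 (309 against 160.5 FPKM, log2 0.94, adjusted p = 0.0333), whose protein binds such elements and brings about decay, and Zfp36l2 (log2 0.94, adjusted p = 0.00305). This count was 0 when scaled without the most abundant genes (with FPKM as deposited it was 1 without SC replicate 3, 2 without SC replicate 1, and 3 without SMF replicate 3, EC replicate 1 or EC replicate 2). Against fibres 7 were higher in SC and all 8 in EC, and 6 and 5 under median-of-ratios scaling.

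Of 17 genes often described as AP-1 targets, 13 passed the filter and were tested. Of these 13, 4 were higher in SC than in EC, 1 lower and 8 not called. Of all tested genes 21.2% were higher and 16.4% lower. Plau, the urokinase gene, stood at 48.4 FPKM in SC and 6.52 in EC (log2 2.73), and Ccnd1, a cyclin gene, at 28.3 against 7.49 (log2 1.84). The cytokine gene Il6 took the other direction, at 3.37 against 19.8 (log2 -2.37, adjusted p = 0.00103). Hbegf, a growth factor gene, was highest in fibres, at 22.5 against 7.05 in SC and 9.05 in EC. Against fibres 9 were higher in SC, 6 without SC replicate 1 and 7 under median-of-ratios scaling, and 5 in EC.

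Heat shock genes, some of which are induced by stress, were measured beside the members. Whether stress raised them here was not tested. Of 10, 6 were higher in SC than in EC (all tested genes 21.2%), with Dnajb1 at 329 against 66.4 FPKM (log2 2.26, adjusted p = 0.00437) and Hspa8 at 689 against 399.8 (log2 0.79). The count was 3 without SC replicate 3, 3 without EC replicate 2 and SMF replicate 1 together and 2 when scaled without the most abundant genes. Against fibres all 10 were higher in SC and in EC, and 7 and 6 under median-of-ratios scaling. Hspa1b, the inducible chaperone gene, had means of 1341 in SC, 975 in EC and 54.3 in SMF. Of 8 genes used by all cells, 7 were also higher in SC and in EC than in fibres, with medians of 2.96 and 3.06, and 5 in each comparison under median-of-ratios scaling.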

How the data were processed

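Stranded libraries (8) were made from 10 ng of RNA and read as 50 bp pairs, per the labels' protocols. The submitters' processing notes name HISAT2, StringTie, FastQC, Trimmomatic and bedtools, with mm10 as the build; versions, settings and the use of strand in assigning reads are not given in the sources consulted. Per the file headers, the deposited gene table holds FPKM for 36048 genes. A second table, deposited by the authors, holds TPM over gene models that differ, and the authors' specificity score, which was not used for any result. The deposited transcript table holds FPKM and coverage, a signal used here to estimate depth.

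Groups came from the sample titles. limma (3.58.1, R 4.3.3) with a mean-variance trend was fitted to log2(FPKM + 1) of all 8 libraries with no covariate, with 1 pooled spread for the groups. The filter (1 FPKM or more in 2 or more libraries) left 16700 genes for two-sided tests, and a call needed an adjusted p (Benjamini-Hochberg, all 16700) below 0.05. Adjusted p-values are from limma unless an exact permutation test is named. Fold changes on this scale understate the change of low genes. FPKM is relative to all fragments, so abundant RNAs of 1 population lower its other genes. Alternatives were pseudocounts of 0.1 and 5, other filters, 3 scalings (median of ratios, upper quartile, and totals that omit each group's 50 top genes), the TPM table, a fit of only the groups compared, a replicate block and leaving out libraries.

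The members and gene lists were chosen with earlier results of these data known, so nothing about the choice is independent of them. All members were named. Of each other list, up to 3 genes of highest mean among those called in the main direction and up to 2 in the other were eligible. Nab1 and Nab2, Dusp1, Jdp2 and Hspa1b fell under the rule for comparisons with fibres. The symbols Mapk13, Egr4 and Batf were not analysed here. The calculation was tested on simulated data. Coordinates and upstream sequences are from RefSeq (GRCm38.p6), matched by symbol.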

Additional observations from a re-analysis of the deposited data

How the results depend on the processing

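Of 190 values (10 genes under 19 alternatives) in each comparison, 178 of SC minus EC and 185 of SC minus SMF kept their direction and their side of the threshold, and 151 of EC minus SMF did. With the direction kept, 10 calls were lost and 2 gained in SC minus EC, and 5 were lost in SC minus SMF. In EC minus SMF 22 were lost and 5 gained with the direction kept. Reversals are counted apart from these. Among them, under median-of-ratios and upper-quartile scaling, Fos and Atf3 also lost their calls and Egr1 became called lower in EC. The 12 reversals were all EC minus SMF: under median-of-ratios, upper-quartile and the scaling without the most abundant genes Egr1 was -1.08, -0.92 and -0.36 and Egr2 -0.88, -0.74 and -0.26, and under the first 2 Fos was -0.37 and -0.22, Fosl1 -0.26 and -0.14 and Atf3 -0.32 and -0.17. Members called higher in EC than in SMF fell to 3 under median-of-ratios and 3 under upper-quartile scaling, with 1 called lower under each. The members' median there was -0.13 under median-of-ratios scaling. The median of all genes for SC minus EC was -0.0148 under median-of-ratios scaling, -0.14 without the most abundant genes, and -0.0158 (without SC replicate 3) to 0.158 (without EC replicate 3) when 1 library was left out. Leaving out 1 library gave 5 to 8, 9 to 10 and 5 to 8 members called higher in SC minus EC, SC minus SMF and EC minus SMF. The cause of these changes was not tested.

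Deviations of same-numbered libraries from their group means had correlations of -0.06 to 0.09. This cannot decide whether the numbers pair samples, since the deviations of the 2 SC libraries mirror each other and groups are small. Pairing was therefore not assumed in the main fit. With the replicate block 7, 10 and 7 members were called higher. Fosl1 (EC minus SMF) was then called (adjusted p = 0.0367) and Atf3 was not (0.0545). Low values limit Fosl1, and 2 SC libraries limit every comparison with SC.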
